A study of Arabidopsis thaliana with 8 samples.

Results

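N6-methyladenosine (m6A) is the methyl mark on adenosines of messenger RNA. The 10 genes described here encode proteins of the complex that writes it and of the demethylase family that erases it in Arabidopsis thaliana. They are the methyltransferase complex genes MTA (AT4G10760), MTB (AT4G09980), FIP37 (AT3G54170), VIR (AT3G05680) and HAKAI (AT5G01160), and the demethylase genes ALKBH9A (AT1G48980), ALKBH9B (AT2G17970), ALKBH9C (AT4G36090), ALKBH10A (AT2G48080) and ALKBH10B (AT4G02940). They were chosen by locus identifier, 10 of 27444 nuclear protein-coding genes, and every peak of m6A-bound RNA whose midpoint lay in an exon of 1 of them on the same strand was taken. There were 8 such peaks among the 19583 deposited.

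The peaks came from miCLIP-seq, in which RNA is crosslinked with ultraviolet light to an antibody against m6A and the bound RNA is sequenced. It was done on poly(A)+ RNA of leaves 5 to 9 of soil-grown plants aged 4 weeks, in the Col-0 ecotype. All plants had 16 h of light and 8 h of dark at 22 °C, and leaves were taken 4 h after first light. The genotypes were ABI3:MTA, called mta below, and wild type (WT), with 2 m6A-bound libraries each and 7 µg of poly(A)+ RNA in each replicate. In ABI3:MTA the promoter of ABI3, a regulator of seed development, drives MTA, and the line is used because loss of MTA stops embryo development; the leaves are thus those of plants that carry MTA under an embryo promoter. Whether the 2 replicates of a genotype were grown or harvested apart is not in the labels, so differences between them may be technical. The lists held 1934 and 2092 peaks in mta replicates 1 and 2, and 8973 and 6584 in WT replicates 1 and 2. Read depth is unknown, and RNA levels were not measured in these lists, so a gene without a called region and a gene with little RNA cannot be told apart.

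In plants as in animals, a complex of proteins methylates messenger RNA in the nucleus. MTA is its catalytic subunit and MTB the related partner subunit; FIP37, the plant counterpart of the animal protein WTAP, VIR and the RING-type ubiquitin ligase HAKAI are further members. Demethylases of the AlkB family, which use iron and 2-oxoglutarate, remove the mark: ALKBH9B and ALKBH10B do so in Arabidopsis, and ALKBH10B is known for its part in flowering. The consensus around methylated adenosines is RRACH (purines at both R positions, anything but G at H), and most m6A of plant messenger RNA lies near the stop codon and in the 3' UTR.

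For each of the 8 peaks, called as m6A-bound parts of the writer and eraser messages, the sequence around a consensus motif is shown. Each line gives 30 bases of the TAIR10.1 genome sequence from RefSeq, 5′ to 3′ on the strand of the gene with T for U, around the RRACH nearest to the midpoint of the peak. Capitals mark that RRACH, which lies inside the peak in all but the FIP37 lines. Both FIP37 lines and the ALKBH10B coding line also hold bases outside their peak, which were not called as bound.

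FIP37 coding sequence, WT replicate 1, chr3:20059289-20059318, plus strand: agagtaaagaaaGGACTggaaattgtgtct
FIP37 3' UTR, WT replicate 1, chr3:20059463-20059492, plus strand: atctgtttcatgAAACAgaaagttctaatc
VIR 3' UTR, WT replicate 1, chr3:1660684-1660713, minus strand: cagttaatatgtAGACAaaagcggtaatcg
HAKAI 3' UTR, WT replicates 1 and 2, chr5:55786-55815, plus strand: ttttgtttctaaAAACTgtgtcgtttgttg
ALKBH9C 3' UTR, WT replicate 2, chr4:17078345-17078374, minus strand: aatttgtaacacGAACAtaatatttgattt
ALKBH10B 3' UTR, WT replicate 1, chr4:1310720-1310749, plus strand: aaaaagaaaaaaAAACTtggaattggtctt
ALKBH10B coding sequence, WT replicate 2, chr4:1307040-1307069, plus strand: tgaaacagaagaAAACAgaggaggaggcgg

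None of the 10 genes had a peak in either mta library, and 5 had at least 1 in WT. The WT lists are the longer ones, and with the top 1934 peaks by score kept in each list, 0 of 10 genes had a peak in mta and 0 of 10 in WT. By library, the genes with a peak numbered 0 and 0 of 10 in mta replicates 1 and 2, against 4 and 3 of 10 in WT replicates 1 and 2. The same count over all nuclear protein-coding genes was 5.62% and 6.01% in the mta libraries and 27.1% and 20.3% in the WT libraries. Over both libraries of a genotype, 0 of 10 had a peak in mta, where 8.58% of all genes had one, and 5 of 10 had a peak in WT, where 28.5% of all genes had one. These shares of 10 genes lie within a few genes of the background, and no test was made on them because the genes were chosen with results of these data known.

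**Figure D1:**
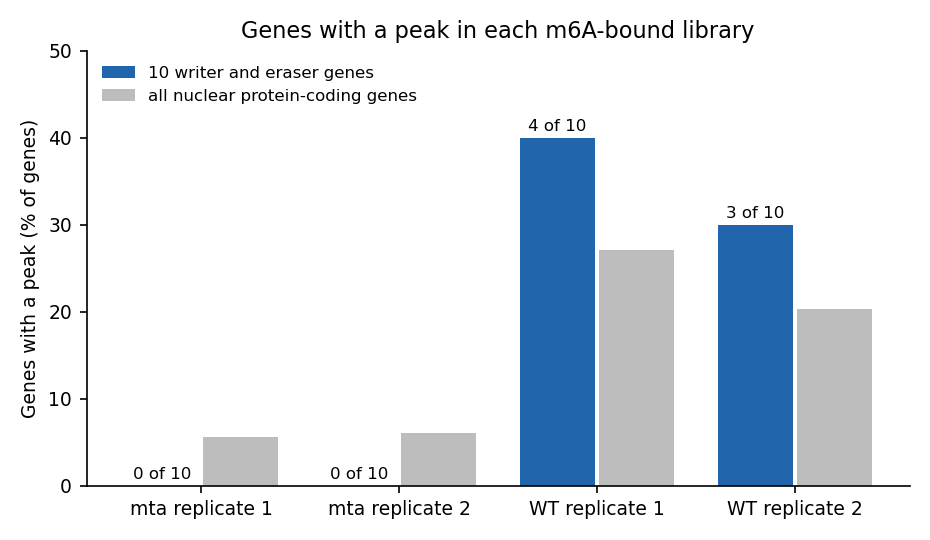
Share of genes with a peak in each m6A-bound library, in percent, for the 10 writer and eraser genes (blue, with their number above the bar) and all 27444 nuclear protein-coding genes (grey). The mta libraries have 0 of 10 genes each, against 4 and 3 of 10 in WT.

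The 5 genes with a WT peak were FIP37, VIR and HAKAI among the writers and ALKBH9C and ALKBH10B among the erasers. HAKAI and ALKBH10B had a peak in both WT libraries, as did 18.9% of all genes. FIP37 and VIR had peaks in WT replicate 1 and not in replicate 2, and ALKBH9C in replicate 2 and not in replicate 1. Lacking an mta peak did not set these genes apart: 2 of 2 with a peak in both WT lists had none in mta, against 74.1% of all such genes, and 5 of 5 with a peak in either WT list had none, against 78.2%.

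MTA itself had no peak in any of the 4 lists. The lists therefore say nothing of the transgene or of the endogenous MTA message, and the genotype labels could not be checked at this gene. MTB, its partner subunit, had none either. A peak of WT replicate 1 on chromosome 4 from 6247667 to 6247762, with a score of 62, overlapped the 3' end of MTB by 28 of its 96 bp, but on the opposite strand. Its midpoint lay in an exon of the convergent gene AT4G09970, annotated as an uncharacterized protein, whose 3' end overlaps that of MTB. The libraries were prepared strand-specifically, per the labels.

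FIP37 carried 2 peaks in WT replicate 1, separated by 17 bp, both in its last exon, exon 12 of 12. The first lay in the coding sequence on chromosome 3 from 20059312 to 20059370 and scored 59. Scores are the authors' own, on a scale no header states, and are used here only within a list, where this one stood at percentile 58.8. The second ran from 20059388 to 20059474, from 8 nt before the last coding base to 78 nt past it, and scored 31, at percentile 20.8. FIP37 thus had a called region before its stop codon and another across it, and neither met a peak of WT replicate 2 or of mta. Among genes with a WT peak, 21.0% had at least 2 in 1 WT list.

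VIR, the longest of these messages at 7041 nt in 28 exons, had a lone peak of 52 bp in its 3' UTR in WT replicate 1. It lay on chromosome 3 from 1660665 to 1660716, with its midpoint 112 nt past the last coding base, and scored 37, at percentile 31.2. With 1 transcript taken per gene, that of VIR is longer than 99.8% of those of all coding genes. It held no other called region in the 4 lists.

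HAKAI gave the only region of the 10 genes found in more than 1 library. Its 3' UTR peak ran on chromosome 5 from 55759 to 55838 in WT replicate 1, with a score of 39, and from 55769 to 55829 in WT replicate 2, with a score of 21. The midpoints were 1 nt apart, at 71 and 72 nt past the last coding base, and the narrower peak lay wholly inside the wider one. An AAACU, an RRACH match, had its central A 2 nt past the midpoint in replicate 1 and 1 nt past it in replicate 2. The bases of HAKAI covered by peaks were 0 and 0 in mta replicates 1 and 2, against 80 and 61 in WT replicates 1 and 2. HAKAI is described here because it had a peak in both WT lists, and no gene of the 10 had one in mta, so this difference was fixed by the choice of gene and no test is given.

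ALKBH10B also had a peak in both WT libraries, but in different places. In WT replicate 1 it was 3' UTR sequence (chromosome 4, 1310704 to 1310761), with its first base 5 nt past the last coding base, and scored 40. In WT replicate 2 it lay in the coding sequence of exon 1, from 1307049 to 1307102, with its midpoint 417 nt after the first coding base, and scored 29. The midpoints were 1325 nt apart on the spliced message and 3657 bp apart in the genome. Such a split was uncommon: of 5194 genes with a peak in both WT lists, 98.5% had peaks that overlapped, and ALKBH10B was 1 of the 79 that did not. The gene count of 2 in both WT lists thus rests on 1 region found in both and on 1 pair of unrelated regions. The bases covered in ALKBH10B were 0 and 0 in mta, against 58 and 54 in WT. These are the widths of separate regions, so their closeness is no agreement between replicates, and as for HAKAI the difference was fixed by the choice of gene.

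The coding peak of ALKBH10B differed in composition from the others. Its bases were 57.4% G or C, where the coding peaks of WT replicate 2 had a median of 41.9% and an upper quartile of 46.2%. The other 7 peaks ran from 28.7 to 37.3%. Its line above is mostly purines.

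ALKBH9C had 1 peak, in WT replicate 2, across its stop codon. It lay on the minus strand of chromosome 4 from 17078332 to 17078382, from 6 nt before the last coding base to 44 nt past it, and scored 28, at percentile 39.4. Its midpoint fell in the 3' UTR of all 5 annotated coding transcripts. ALKBH9A, ALKBH9B and ALKBH10A had no peak in any list. The nearest called region beside ALKBH10A was 983 bp past its 3' end, on the opposite strand in RPH1, in WT replicate 1. No mta peak lay within 1000 bp of any of the 10 genes on either strand, and the nearest on the same strand was 4438 bp from ALKBH9A.

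**Figure D2:**
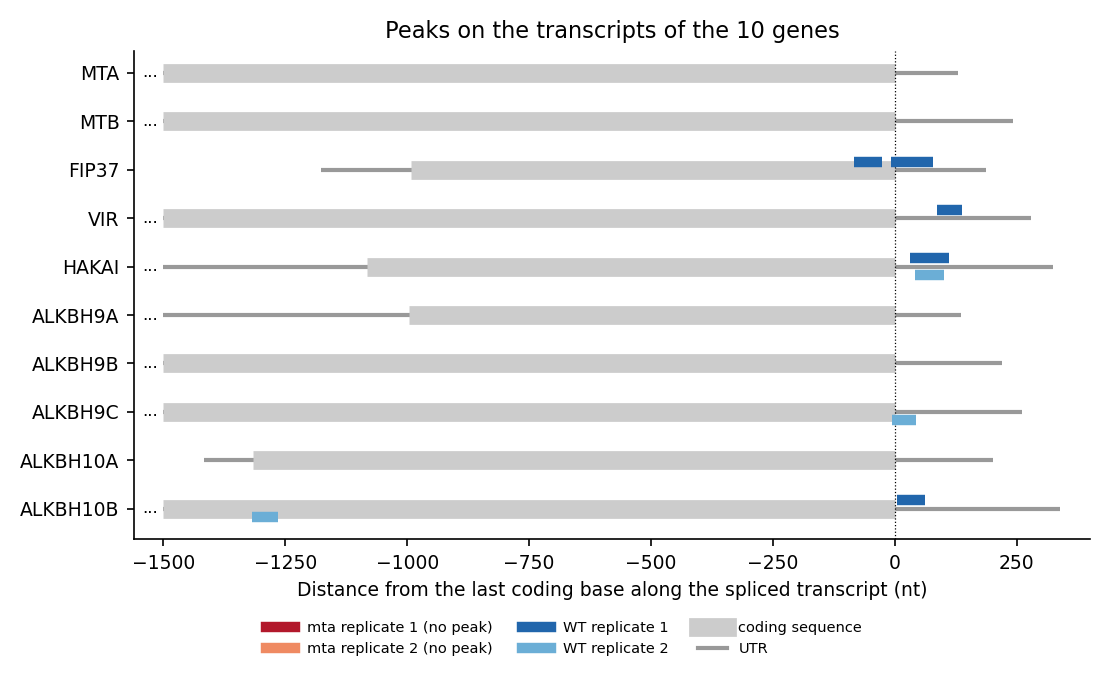
The 10 genes drawn along the transcript with the longest coding sequence, in nt from the last coding base (dotted line), with coding sequence as wide grey bars and UTRs as thin lines; dots mark transcripts that run on past the left edge. Coloured bars are peaks of WT replicate 1 (above) and WT replicate 2 (below); the mta libraries have none, and 7 of the 8 WT peaks lie near the stop codon.

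The peaks lay around the stop codon, with 1 exception, as most WT peaks of all genes did. Of the 8, 6 had their midpoint in the 3' UTR and 2 in coding sequence, where 91.5% and 90.8% of all placed peaks of WT replicates 1 and 2 were in 3' UTRs and 8.22% and 8.83% in coding sequence. The midpoints of 7 lay within 150 nt of the last coding base and in the last exon, from 55 nt before it (FIP37) to 112 nt past it (VIR), and the coding peak of ALKBH10B was the exception. Of all placed peaks, 67.2% in WT replicate 1 and 66.1% in WT replicate 2 lay within that distance, and 96.9% and 96.1% lay in the last exon. Past the stop codon, the 6 midpoints stood at 19 nt in ALKBH9C, 33 in ALKBH10B, 35 in FIP37, 71 and 72 in HAKAI and 112 in VIR. All 6 came before the median of all 3' UTR peaks, which was 119 nt in WT replicate 1 and 118 nt in WT replicate 2.

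**Figure D3:**
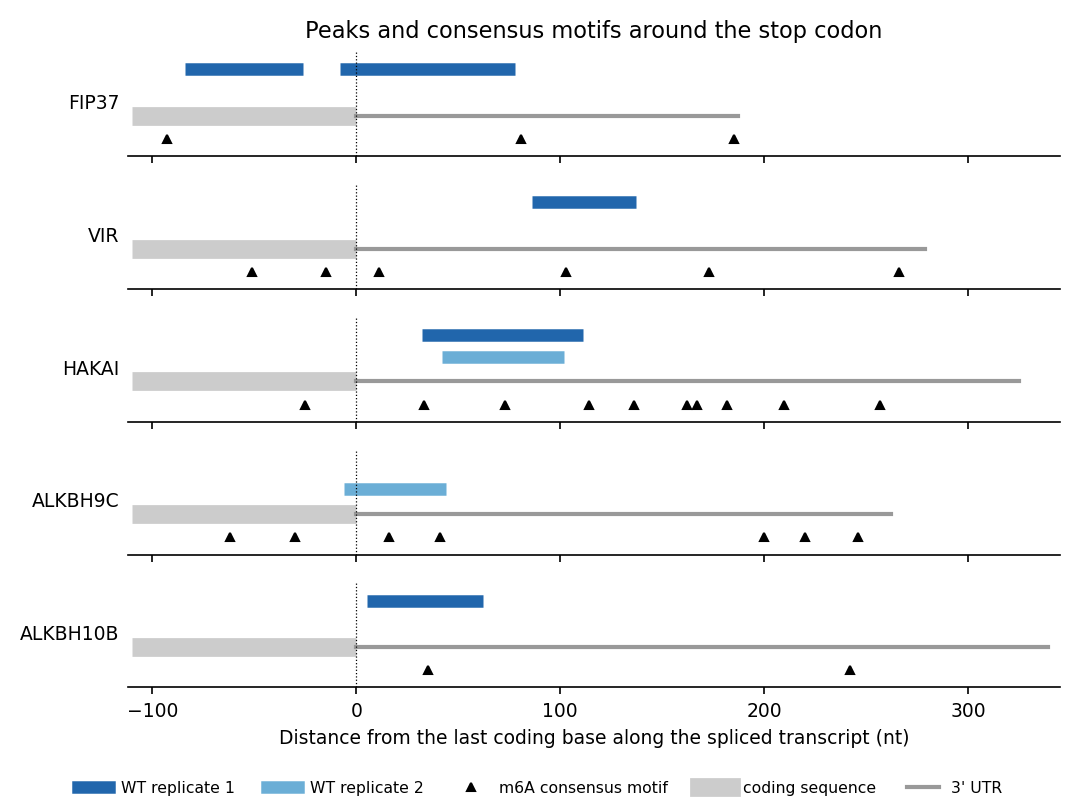
Peaks of WT replicates 1 and 2 and RRACH motifs (triangles, at the A of the motif) on the 5 genes with a WT peak, in nt from the last coding base. The HAKAI peaks of both libraries overlap around the motif 73 nt past it, while ALKBH10B shows its replicate 1 peak alone, the other lying outside the drawn window.

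All 8 peaks had an RRACH within 50 nt of the midpoint, and 6 had one inside the peak. Among all placed peaks the share within 50 nt was 77.3% in each WT library, and 68.2% of 53893 windows of 101 nt tiled over all 3' UTRs held one, so a match is common by length alone. The HAKAI peaks share a window, so the 8 peaks are 7 places. The central A of the nearest match lay within 3 nt of the midpoint in both HAKAI peaks, the 3' UTR peak of ALKBH10B and ALKBH9C, and 9 nt before it in VIR. Both FIP37 peaks had their match outside the peak, 38 nt before and 46 nt after the midpoint; the first of these is GGACU. URUAY (Y is C or U), a motif reported near m6A in plants and searched on the gene's strand like RRACH, stood within 50 nt of 2 of the 8 peaks, the 3' UTR peak of FIP37 and that of VIR. Its shares of all placed peaks were 57.1% and 56.8% in WT replicates 1 and 2, and 50.6% of the tiled windows held it.

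RRACH matches outnumbered called regions in these 3' UTRs. HAKAI had 9 in a 3' UTR of 325 nt, ALKBH9C had 5 in 262 nt, VIR had 4 in 279 nt, and FIP37 and ALKBH10B had 2 each in 187 and 339 nt. Of the 9 in HAKAI, the match wholly inside the peaks of both libraries was the second, at 73 nt past the last coding base.

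The writer and eraser peaks were narrow and mostly low in their lists. Widths ran from 51 to 87 bp, and 8 of 8 were below the median of their list, which was 88 bp in WT replicate 1 and 83 bp in WT replicate 2. Of these, 6 were also below the lower quartile, at 63 bp in WT replicate 1 and 62 bp in WT replicate 2. By score, 6 of 8 were below the median of their list, the coding peak of ALKBH10B was at it and the coding peak of FIP37 above it. The range was from percentile 18.1, for HAKAI in WT replicate 2, to 58.8. Placed peaks in coding sequence had medians of 59 bp and score 35 in WT replicate 1, and 60 bp and 26 in WT replicate 2. Against these, the coding peak of FIP37 (59 bp, score 59) was at the width median and above the score median. That of ALKBH10B (54 bp, score 29) was narrower and scored higher. All 3' UTR peaks here were below both 3' UTR medians. These were 93 bp and score 54 in WT replicate 1, and 87 bp and 31 in WT replicate 2.

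**Figure D4:**
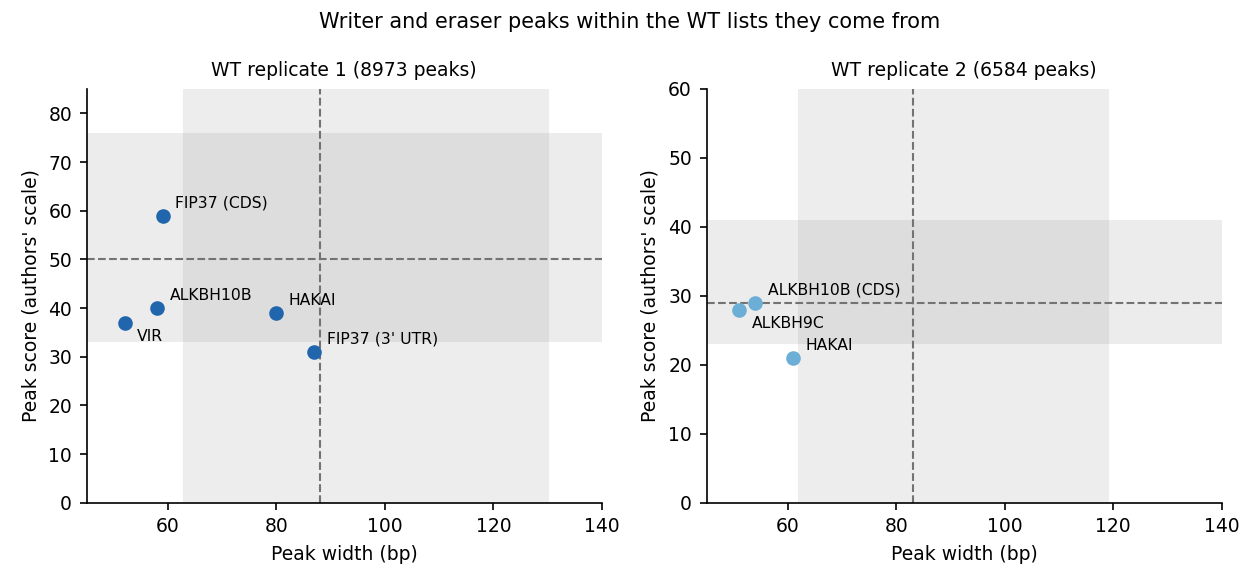
Width in bp (x axis) and score on the authors' scale (y axis) of the writer and eraser peaks in WT replicate 1 (left) and WT replicate 2 (right); dashed lines are the medians of all peaks of that list and grey bands the span from lower to upper quartile. All 8 points lie left of the median width, and 1 point, the coding peak of FIP37, lies above the median score.

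Apart from the HAKAI pair, no writer or eraser peak met a peak of the other WT library. Of the 5 in WT replicate 1, 1 met a peak of replicate 2, where 63.2% of all peaks of that list did. Of the 3 in WT replicate 2, 1 met a peak of replicate 1, where 87.4% of all did. Score rank and position moved with this share over all peaks. Among peaks of WT replicate 1 within 5 percentile points of the score of each, 38.7% for the 3' UTR peak of FIP37, 42.1% for VIR, 43.2% for HAKAI and 42.2% for ALKBH10B were met, and 70.0% for the coding peak of FIP37. In WT replicate 2 the corresponding share was 67.0% for HAKAI, 79.8% for ALKBH9C and 87.7% for ALKBH10B. Coding peaks of any score were met in 28.7% of cases in WT replicate 1 and 36.5% in WT replicate 2, against 66.7% and 93.0% of 3' UTR peaks. With 8 peaks, the part of rank and position in these counts was not tested.

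The genes with a WT peak had the longer 3' UTRs of the 10, with overlap between the sets. The 5 with a peak had 3' UTRs of 187 to 339 nt with a median of 279, and the 5 without one 130 to 243 nt with a median of 202. HAKAI and ALKBH10B, with 325 and 339 nt, had the longest. With all genes ranked by 3' UTR length into 4 equal groups, the share with a WT peak was 5.71% in the shortest (up to 128 nt), 27.5% and 38.5% in the next groups and 42.2% in the longest (from 314 nt). MTA, whose 3' UTR is 130 nt, and ALKBH9A, with 136 nt, stood just above the limit of the shortest. The part of 3' UTR length in which of the 10 genes had a peak was not tested. Transcript length separated the sets less, with medians of 1944 nt in genes with a peak and 1854 nt in genes without one.

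Of 31 genes in 4 further lists of m6A biology, 0 had a peak in mta, 11 had one in WT and 6 in both WT libraries. Among all genes the shares were 8.58%, 28.5% and 18.9%, so the counts of these 31 lie near the background and nothing is read from them. Of the 12 readers (ECT1 to ECT11 and CPSF30, which bind m6A through a YTH domain), 6 had a WT peak and ECT10 had one in both libraries. Of 7 other genes listed as AlkB relatives, 2 had peaks in both WT libraries: AT1G11780, annotated as a 2-oxoglutarate oxygenase, with scores of 117 and 42 in WT replicates 1 and 2, and TRM9 (AT1G31600), with 63 and 23. The AT1G11780 peak stood at percentile 94.2 of WT replicate 1, higher than any of the 8 writer and eraser peaks. Of 4 further methyltransferase and writer-associated genes, AT5G53440, annotated as a CCCH zinc finger protein, had a peak in each WT library, and like ALKBH10B its peaks did not overlap. FIO1, a methyltransferase that acts on the U6 small nuclear RNA, had none. Of 8 genes of the S-adenosylmethionine cycle, which supplies the methyl donor, the adenosine kinases ADK1 and ADK2 had 3' UTR peaks in both WT libraries and the other 6, including SAM1 and SAHH2, had none.

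The genes whose pattern was most like that of HAKAI and ALKBH10B were found by the summed absolute difference in best score percentile over the 4 libraries. For HAKAI they were TUA5, an alpha tubulin, with the same scores of 39 and 21 in WT, no mta peak and a difference of 0, and AT2G36835, with 38 and 21 and a difference of 0.836 percentile points. TUA5 has a near-identical paralogue, so its peaks are uncertain. For ALKBH10B they were SKS6 (40 and 29, a difference of 0) and ARI7 (38 and 29, a difference of 1.60 points). All 4 had both WT peaks in the 3' UTR and overlapping, unlike ALKBH10B. The likeness is one of rank alone.

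The leaf label could not be checked from these lists. Of 9 leaf markers, among them RBCS1A, RCA and LHCB2.1, 0 had a peak in any list, and of 7 embryo and seed markers, among them ABI3 and OLEO1, 0 had one. The absence of a peak gives no RNA level.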

How the data were processed

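The submitters' processing notes name MACS2, STAR 2.4.0 and TAIR10. For MACS2 the version, control and threshold were not given in the sources used here. The peak names show that peaks were called per library and per strand, and mta replicate 2 has differently built names. Each list, as deposited, holds for every peak a position, a strand and the authors' whole-number score, which ran from 13 to 203. Midpoints were placed on RefSeq gene models of TAIR10.1 (all peak ends lay within its chromosomes), using for each gene the transcript whose coding sequence is longest. Midpoints in exons of more than 1 gene were left out. A score percentile is the mean rank of that score within its own list, in percent. Peaks sharing at least 1 bp on the same strand were called overlapping. RRACH was searched on the genome within 50 nt of the midpoint, on the gene's strand. The members, lists and tests were chosen with earlier results of these data known. All 10 members are named. For each one in both WT lists the 2 most alike genes are named, and of the other lists the genes in both WT lists or any mta list; other genes were named after their values were seen. Python 3.11.15 was used, and placement was checked on made-up peaks at 200 known positions, of which 200 were recovered. The bases of a gene covered by peaks were planned for an exact permutation test, which is not given because the genes it fits were chosen for their WT peaks. The supernatant libraries were not analysed here.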

Additional observations from a re-analysis of the deposited data

How the results depend on the processing

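Of 45 alternative values for 9 results, 30 kept the value or stayed within 1.5 times of it. Many of these 30 could not have moved. Leaving out an mta list cannot change a WT count, and a replicate block returns the same mean difference. A wider window or a looser motif keeps every RRACH match. The tally is thus no measure of stability. The count of genes with an mta peak was 0 in all 8 alternatives, none of which could have raised it. Score limits and leaving out libraries add no mta peaks. The wider placement rules could add none, as no mta peak lay within 1000 bp of a member. With scores of at least 50, or with the top 1934 peaks by score kept in each list, the size of the shortest, the genes in both WT lists fell to 0, as did those in both WT lists and neither mta list. Those in either WT list fell to 1 (FIP37) at scores of at least 50 and to 0 in shortened lists. The mta minus WT difference in covered bases of HAKAI and of ALKBH10B was 0 in both settings, and the HAKAI region shared by both WT lists was lost at scores of at least 50, where the count was 0. WT replicate 2 scores reach only 58, and shortening kept scores from 82 in WT replicate 1 and from 36 in WT replicate 2, so both settings remove most low-ranked peaks by construction. Leaving out 1 library gave 2 to 4 genes in all remaining WT lists (with and without the condition of no mta peak) and 3 to 5 in either; without WT replicate 2, 4 genes have a peak in the remaining list, and without WT replicate 1, 3 do. URUAY in place of RRACH, chosen after the data were seen, gave 2 of 8 peaks. With the replicate number as a block, the means of the paired differences were -70.5 bp for HAKAI and -56 bp for ALKBH10B. The signs of these differences were fixed by choosing genes with a peak in both WT lists, so no p is given. A shared number is not known to mark a shared plant or day. Depth, which the lists do not give, limits what the absence of a peak can say.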
